A study of Homo sapiens with 97 samples.

Results

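Interior solitary NS-seq peaks come from a method that enriches short nascent DNA. They stand alone, far from chromosome ends and from every other peak of the same list. Whether each of them marks nascent DNA was not tested. Of 3750 deposited peaks, 3733 were nuclear and 1709 lay in the chromosome interior. Of these 1709, 503 (29.4%) had a gap of more than 250 kb to the nearest other peak on both sides. Interior means a peak midpoint more than 5 Mb from either end of the timing lists on chromosomes 1 to 16, 18, 20, 21 and X. The first 7 Mb of chromosome 7 and the far end of chromosome 8 were left out by the same rule. Members were chosen by the positions of the peaks themselves, so counts of members and their gaps are a description with no test. The 1206 interior peaks with a gap of at most 250 kb served for comparison.

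The study asked how DNA replication is held back around double-strand breaks in human cell lines. NS-seq was run in AsiSI-U2OS cells, an osteosarcoma line with the restriction enzyme AsiSI, whose cutting is started by 4-hydroxytamoxifen (4OHT). There were 2 untreated samples, 2 samples given 300 nM 4OHT for 4 h, and 2 untreated input samples, all labelled as wild-type AsiSI_U2OS, and the peak list is deposited with an input sample and named as merged, without saying which samples it merges. Replication timing came from untreated wild-type U2OS cells, as 1 merged G1 and 1 merged S phase sample, and break sites came from HCT116_LIG4_KO_AID_RAD21 cells given 4OHT, a colorectal carcinoma line with LIG4 knocked out and named for AID-RAD21. A solitary peak could therefore not be assigned to cut or uncut cells. Nothing in the labels tells whether the lines were single clones.

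Replication of human chromosomes starts at many origins, each of which opens a pair of forks that move apart. Strands made right after initiation are short and carry an RNA primer, and NS-seq enriches them by size and by an exonuclease that spares primed DNA. Origins fire in a set order through S phase, and neighbouring origins tend to fire together, which divides chromosomes into domains of early and late replication. Between such domains lie transition regions, where timing changes from one class to the next.

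All 3750 peaks were 1000 bp wide, with positions on hg19 and a score from the authors whose scale is not stated. No score was below 10.0, so weaker origins may be missing and a solitary peak is solitary only among the peaks that passed. Read depth is unknown. A single list has no replicate error and neighbouring peaks are not independent, so no p-value is given. Intervals in brackets below are 95% intervals for counting error only. Sequence and gene annotation of hg19 were not used here.

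Solitary peaks were spread more evenly over chromosomes than the other interior peaks were. Chromosome 16 had the highest density, with 34 members or 0.423 per Mb of interior sequence (exact Poisson interval 0.293 to 0.591). Chromosome 15 followed with 29 members or 0.400 per Mb (0.268 to 0.574). The lowest densities were 0.0928 per Mb on chromosome 13 (8 members), 0.0964 on chromosome X (14 members) and 0.105 on chromosome 4 (19 members). The highest and lowest chromosomes thus differed 4.56-fold for solitary peaks. For the other interior peaks the same ratio was 51.2, from 0.0232 per Mb on chromosome 13 to 1.19 per Mb on chromosome 20. The chromosome 13 value rests on 2 peaks, and the next lowest was 0.0688 per Mb on chromosome X (10 peaks). A gap rule sets an upper limit on how dense solitary peaks can be, so part of this evenness is built in.

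On 3 chromosomes solitary peaks made up at least 50% of the interior peaks. They were 8 of 10 on chromosome 13, 14 of 24 on chromosome X and 19 of 38 on chromosome 4. On chromosome 12 they were 15 of 128 (11.7%), the lowest share. Chromosomes 1 and 2 contributed the most members, 66 and 57, and chromosome 21 the fewest, 4.

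**Figure D1:**
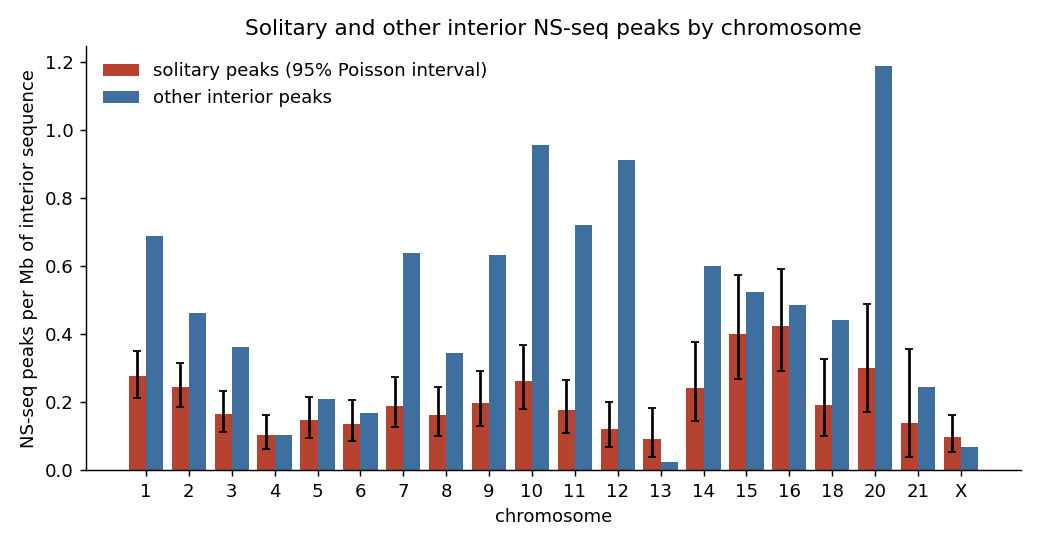
Density of solitary peaks (red, with 95% Poisson intervals) and of the other interior peaks (blue) in peaks per Mb of interior sequence on each of the 20 chromosomes. Red bars lie between 0.0928 and 0.423 per Mb, while blue bars run from 0.0232 to 1.19 per Mb.

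The gap to the nearest peak had a median of 750 kb among members (quartiles 402 and 1585 kb), against 32.1 kb among the other interior peaks. There were 173 members with gaps of 250 to 500 kb and 137 with gaps of 500 kb to 1 Mb. Of the longer gaps, 86 lay between 1 and 2 Mb, 59 between 2 and 5 Mb, 37 between 5 and 10 Mb and 11 above 10 Mb. The wider of a member's 2 gaps was 2.55 times the narrower at the median. The members just inside the threshold were chr1:32402686-32403685 (gap 251 kb, score 17.2, mid-early), chr2:10895269-10896268 (252.7 kb, mid-early) and chr3:14850171-14851170 (252.7 kb, score 11.1, mid-early). Just outside it lay chr12:113011695-113012694 (249 kb, score 21.6, mid-early) and the neighbours chr9:70092726-70093725 and chr9:70343456-70344455 (249.7 kb apart, scores 12.9 and 12.0, both mid-late). Scores on both sides of the threshold overlapped.

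At the margin, the members nearest to a chromosome end were chr10:130262304-130263303 (mid-late, score 11.1) at 5.27 Mb and chr21:42846725-42847724 (early, score 10.8) at 5.28 Mb. The isolated peaks just beyond the margin were chr6:166122229-166123228 (mid-early, score 13.5) at 4.99 Mb and chr21:43225878-43226877 (early, score 17.2) at 4.90 Mb.

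The 8 most isolated members had at least 10.3 Mb without another peak on either side. The peak chr5:92545074-92546073 had the largest gap, with 23.6 Mb to its left neighbour and 29.7 Mb to its right one. It lay in a mid-late domain of 1.02 Mb on a slope between earlier and later sequence. The peak chr3:97707363-97708362 had gaps of 24.5 and 21.8 Mb, in a mid-late domain of only 101.6 kb with late sequence at its nearest border. The late peak chr6:121510937-121511936 had gaps of 41.3 and 21.6 Mb and a score of 18.6, the highest of the 69 late members. These were followed by the late peak chr2:154874783-154875782 (gaps 21.5 and 16.8 Mb) and the mid-late peak chr9:19610837-19611836 (13.6 and 13.7 Mb). The remaining members of this group were the mid-early peak chrX:19892271-19893270 (12.4 and 18.3 Mb), the late peak chrX:81315397-81316396 (10.5 and 52.6 Mb) and the early peak chr4:169599770-169600769 (15.5 and 10.3 Mb). All 4 timing classes were thus present among the 8, with 3 members late and 3 mid-late.

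Score and isolation had a rank correlation near 0 among the members. Over the 503 members, which share 1 list and 1 score cut, Spearman's rho between score and gap was 0.0055, and between score and distance to a timing border it was -0.039. The median score was 11.7 (order statistic interval 11.5 to 12.1) for solitary peaks and 11.6 (11.5 to 11.8) for the other interior peaks, so the centres overlapped. At 14 or more were 128 of 503 solitary peaks (25.4%, exact Clopper-Pearson interval 21.7 to 29.5%), against 226 of 1206 other peaks (18.7%, 16.6 to 21.1%). At 20 or more the shares no longer differed in this direction, with 8 solitary (1.59%, 0.689 to 3.11%) and 21 other peaks (1.74%, 1.08 to 2.65%). In early sequence the shares at 14 or more were 27.01% (20.6 to 34.3%) and 16.1% (13.2 to 19.5%). In late sequence the order was the other way, 21.7% (12.7 to 33.3%) against 30.6% (20.2 to 42.5%), with intervals that overlap.

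The 5 highest scores were found outside the early and late classes. The mid-late peak chr7:54613014-54614013 had the highest score, 23.3, with gaps of 3822 and 1337 kb. Also mid-late were chr1:121484744-121485743 (21.7), chr18:5505279-5506278 (21.7) and chr14:94454289-94455288 (21.6), while chr7:70352595-70353594 (21.6) was mid-early. Among mid-late members, 27 of 136 (19.9%, 13.5 to 27.6%) scored 16 or more, against 5 of 69 late members (7.25%, 2.39 to 16.1%). These intervals overlap. The share was 14.4% of early and 10.5% of mid-early members. Among the other interior peaks the order of late and mid-late was reversed, at 18.1% and 14.6%, also with overlapping intervals.

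**Figure D2:**
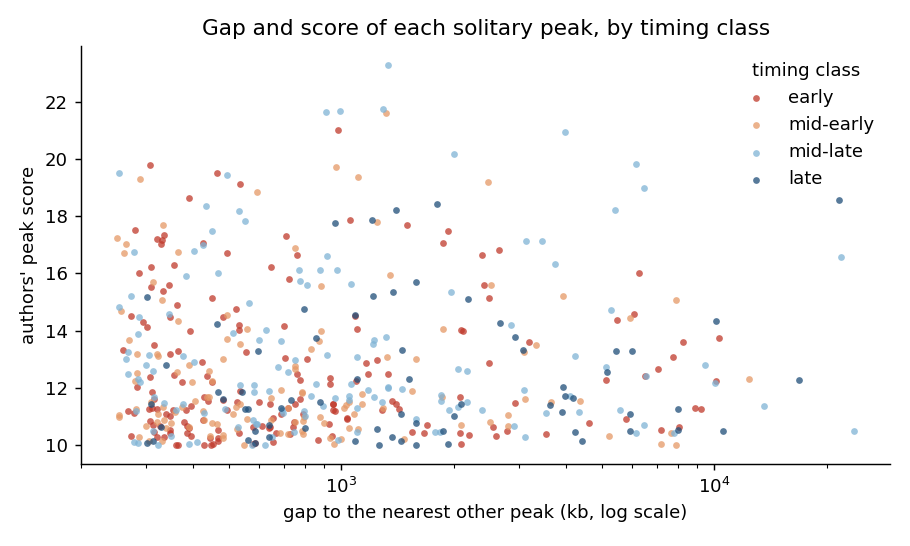
Each point is 1 of the 503 solitary peaks, by its gap to the nearest other peak (kb, log scale) and the authors' score, coloured by timing class. The 5 highest scores, 21.6 to 23.3, are mid-late or mid-early with gaps of 910.3 to 1337 kb, and the 8 members with the largest gaps score at most 18.6.

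Timing classes were used to ask in which replication environment an isolated peak lies. Solitary peaks occupied all 4 classes, with fewer early and more late members than the other interior peaks. Of the 503, 174 were early (34.6%, 30.4 to 38.9%), 124 mid-early (24.7%, 20.9 to 28.7%), 136 mid-late (27.04%, 23.2 to 31.1%) and 69 late (13.7%, 10.8 to 17.04%). Of the other interior peaks, 45.2% were early (42.4 to 48.0%) and 5.97% late (4.70 to 7.46%). Interior sequence itself was 24.7% early and 27.2% late, so late sequence was underrepresented among solitary peaks too.

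The late share was recomputed with a higher score required, at least 11.8, the median of nuclear peaks. When it was required of the peaks compared but not of their neighbours, 12.1% of solitary and 7.75% of other interior peaks were late. When it was required of neighbours too, the shares were 9.82% of 387 solitary peaks and 8.39% of the others, a smaller contrast. No interval was computed for these shares, so they do not show whether a contrast remains at this score. The late share also depended on the gap, with 10.4% late members above 100 kb and 18.2% above 500 kb.

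Seen per class, the share of interior peaks that stood alone was 24.2% in early sequence (174 of 719, 21.1 to 27.5%) and 24.8% in mid-early sequence (124 of 500, 21.1 to 28.8%). It was 39.0% in mid-late sequence (136 of 349, 33.8 to 44.3%) and 48.9% in late sequence (69 of 141, 40.4 to 57.5%). A class with fewer peaks per Mb leaves more of them isolated under a fixed gap, so this order follows in part from density.

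Per Mb of interior sequence, solitary peaks numbered 0.274 in early sequence (0.235 to 0.317), 0.221 in mid-early (0.184 to 0.263), 0.201 in mid-late (0.168 to 0.237) and 0.0985 in late sequence (0.0767 to 0.125). The early over late ratio was thus 2.78 for solitary peaks, and 8.34 for the other interior peaks. Late sequence held about as many solitary as other peaks, 69 and 72, whereas early sequence held 174 and 545. The gap rule limits solitary density most where peaks are dense, so these differences between the sets are in part built in. The mid-early class contains intervals longer than 1 Mb without any peak, which span 90.7 Mb of the interior. Without these intervals the mid-early solitary density was 0.264 per Mb (0.219 to 0.314), close to the early value.

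Chromosomes were not uniform in this. The late share was higher among solitary than among other interior peaks on 14 of 20 chromosomes, lower on 5 and equal on 1. On chromosome 6, 36.4% of 22 solitary peaks and 0% of 27 other peaks were late, while on chromosome 9 it was 0% of 26 and 18.1% of 83. Compared with sequence, solitary peaks were less often late on 19 of 20 chromosomes, the exception being chromosome 6, where 26.9% of the interior is late. They were more often early than sequence on 17 of 20.

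**Figure D3:**
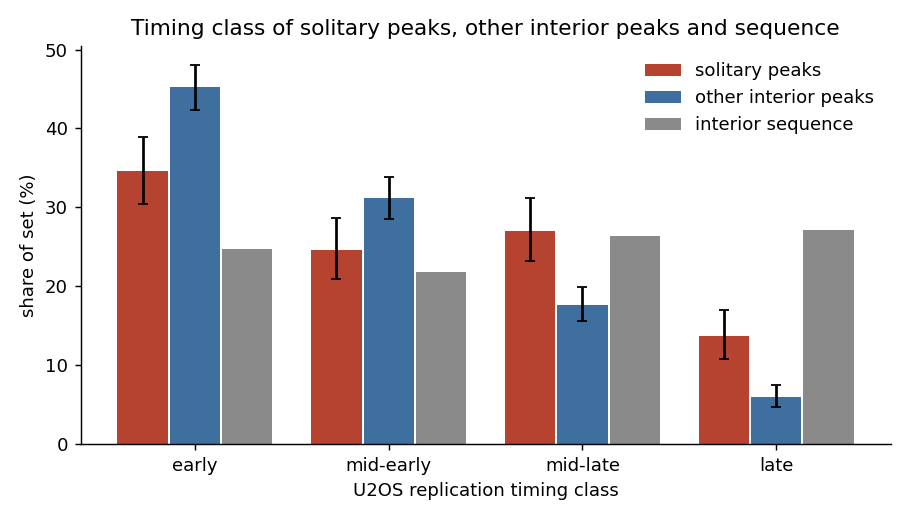
Share (%) of solitary peaks (red), other interior peaks (blue) and interior sequence (grey) in each U2OS timing class, with 95% Clopper-Pearson intervals for the peaks. Late sequence holds 13.7% of solitary peaks, 5.97% of other peaks and 27.2% of the sequence.

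Late members were also the most isolated. Their median gap was 1401 kb (order statistic interval 1089 to 1872 kb), compared with 607 kb in early sequence (493 to 722 kb), 667 kb in mid-early (495 to 788 kb) and 843 kb in mid-late sequence (690 to 1049 kb). Gaps chose the members, and these values only describe how far beyond the threshold each class reached. Late members made up 5.20% of members with gaps of 250 to 500 kb and 11.7% of those with gaps of 500 kb to 1 Mb. The share was 24.4% at gaps of 1 to 2 Mb and 21.5% above 2 Mb. Early members remained frequent at the longest gaps, with 33 of 107 (30.8%) above 2 Mb.

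The distance to the nearest domain border separated late members from late sequence. A border is a position where the timing class changes. Over all members the median distance was 69.5 kb (57.1 to 78.7 kb). For late members it was 104 kb (76.4 to 203 kb), while positions taken every 10 kb through late interior sequence had a median of 273 kb. Within 100 kb of a border lay 33 of 69 late members (47.8%), against 29.5% of late sequence, and beyond 500 kb lay 10 (14.5%), against 34.7%.

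Expressed as density, late sequence within 100 kb of a border held 0.160 solitary peaks per Mb (0.110 to 0.225, 33 peaks in 206 Mb). Late sequence more than 500 kb from a border held 0.0412 per Mb (0.0197 to 0.0757, 10 peaks in 243 Mb), which is 3.88 times less. The other interior peaks had 0.189 and 0.0288 per Mb in the same stretches, a ratio of 6.55. Here too the gap rule limits solitary density most where peaks are denser. The domains that held late members were also shorter, with a median of 693 kb, than the domain around a position in late sequence, 1459 kb. The other late interior peaks lay in shorter domains still, with a median of 408.6 kb, and 84.2 kb from a border (52.5 to 149 kb). Inside their domains late members lay at a median of 0.372 of the way from the border to the middle. The median was 0.499 for late sequence and 0.530 for the other late peaks, with no interval computed. For early, mid-early and mid-late members it was 0.518, 0.609 and 0.483.

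In the other 3 classes the median distance of the sequence lay within the interval of the solitary peaks. Early members lay 119 kb from a border at the median (96.5 to 157 kb), and early sequence 117.5 kb. Mid-early members lay 35.9 kb away (26.03 to 45.8 kb), and mid-early sequence without the wide intervals 35.0 kb. Mid-late members lay 53.7 kb away (48.2 to 70.1 kb), and mid-late sequence 58.9 kb. In early sequence the density of solitary peaks was 0.281 per Mb within 25 kb of a border and 0.322 per Mb beyond 500 kb, with overlapping intervals (0.186 to 0.405 and 0.206 to 0.479).

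**Figure D4:**
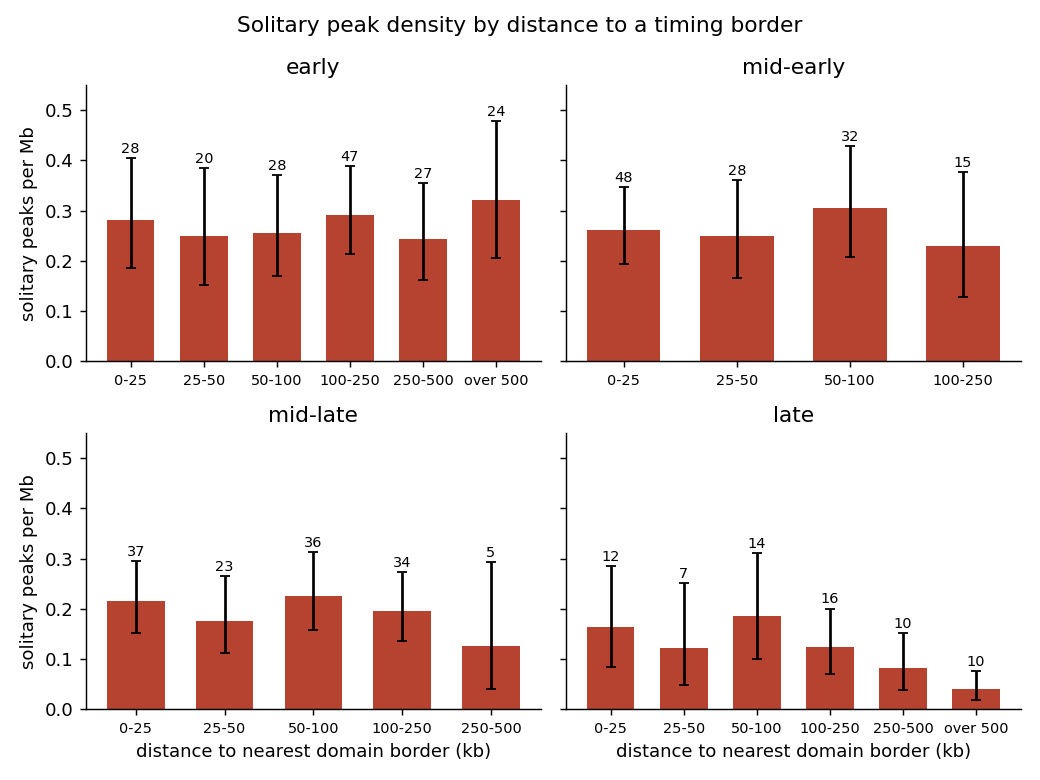
Solitary peaks per Mb of sequence by distance to the nearest domain border (kb), 1 panel per timing class, with 95% Poisson intervals and the number of peaks above each bar. Bins with under 10 Mb of sequence are not drawn. Density is nearly level in early sequence and lowest beyond 500 kb in late sequence, at 0.0412 per Mb.

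The members nearest to a border were within about a peak width of it. The mid-early peak chr12:106430997-106431996 had its midpoint 404 bp from early sequence, and chr7:138656662-138657661, an early peak, 539 bp from mid-early sequence. Next came chr18:47809183-47810182 (mid-early, 882 bp), chr13:108866934-108867933 (mid-late, 933 bp) and chrX:67872607-67873606 (mid-late, 1006 bp). The members farthest from a border lay deep inside long early or late domains. The late peak chr6:68372583-68373582 was 1988 kb from the nearest border, in a late domain of 5.92 Mb (64443601 to 70361500). The early peaks chr15:40342454-40343453 and chr15:40650320-40651319 were 1756 and 1448 kb from a border and shared an early domain of 3.71 Mb, 306.9 kb apart. The same domain also held the members chr15:41046637-41047636 and chr15:41779642-41780641, which were nearer to a border. The late peak chr4:179874435-179875434 (1407 kb) and the early peak chr8:28633017-28634016 (1123 kb) completed the 5.

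Domains differed in how many peaks they held. A member was the sole peak of its domain in 449 of 503 cases (89.3%), compared with 270 of 1206 other interior peaks (22.4%). Short domains make this so by the gap rule, and the mid-early members, each alone in a domain with a median of 148 kb, are all of this kind (124 of 124). It is less forced in long domains. Of the early members, 57 lay in domains of 1 Mb or more, and 42 of 174 shared their domain with another peak. The longest early domain with a member, 64486701 to 68863400 on chromosome 15 (4.38 Mb), held 2 members, chr15:65153986-65154985 and chr15:68616918-68617917 (scores 10.5 and 10.4), besides peaks that were not solitary. The longest late domain with a member, 161393201 to 167822900 on chromosome 3 (6.43 Mb), held chr3:162259481-162260480 (score 11.7), whose neighbours were 3969 and 8043 kb away.

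The flanking domains show whether a peak sits in a local advance or a local delay of replication. Early domains can only be flanked by later sequence and late domains only by earlier sequence, so the question is open for the middle classes. Of the 124 mid-early members, 62 (50%, 40.9 to 59.1%) lay in a domain with early sequence on both sides, a shallow delay inside an early region. Of mid-early sequence without the wide intervals 30.2% was so placed, and 25.3% with them. Only 23 mid-early members (18.5%, 12.1 to 26.52%) had later sequence on both sides, against 29.3% of that sequence. Slopes between an earlier and a later domain held the remaining 39 (31.5%).

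Mid-late members followed the same order. There, 68 of 136 (50%, 41.3 to 58.7%) had earlier sequence on both sides, compared with 37.3% of mid-late sequence, and 18 (13.2%, 8.04 to 20.1%) had later sequence on both sides, compared with 24.5%. The other interior peaks had earlier sequence on both sides at 55.3% of mid-early and 58.7% of mid-late peaks, and their intervals overlap those of the solitary peaks. With domains under 50 kb merged, the shares were 48.3% of mid-early and 48.6% of mid-late members, against 28.7% and 35.1% of sequence.

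Earlier-replicating sequence was close to most members. Of the 329 members that were not early, 259 (78.7%, 73.9 to 83.0%) had sequence of an earlier class within 250 kb of the midpoint, against 57.0% of non-early sequence, or 59.8% without the wide intervals. Among the other interior peaks it was 570 of 661 (86.2%, 83.4 to 88.8%). Within 100 kb the shares were 56.2% of members (50.7 to 61.7%), 69.6% of other peaks (65.9 to 73.1%) and 37.0% of sequence. By class, the nearest earlier sequence lay 62.1 kb from mid-early members at the median, 87.1 kb from mid-late members and 104 kb from late members. In sequence without the wide intervals these medians were 98.4, 152 and 273 kb. Solitary peaks outside the early class were thus nearer to earlier sequence than their class as a whole. Compared with other interior peaks their pooled shares were lower, but 69 of 329 were late, against 72 of 661. By class, the 250 kb shares of solitary and other peaks had overlapping intervals. They were 87.9% and 90.2% in mid-early, 74.3% and 83.6% in mid-late, and 71.0% and 73.6% in late sequence. Within 100 kb only the mid-late intervals were apart, at 51.5% (42.8 to 60.1%) and 67.1% (60.4 to 73.4%).

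The distance to the early class itself rose from mid-early to late members, as it did in sequence. The median distance to the nearest early sequence was 62.1 kb for mid-early members (43.0 to 84.0 kb), 463 kb for mid-late members (366 to 560 kb) and 1549 kb for late members (1032 to 1845 kb). For sequence of these classes without the wide intervals it was 98.4, 646.5 and 1997 kb, so members lay nearer in each. No late member lay closer than 271 kb to early sequence. For mid-late peaks that were not solitary the distance was 281 kb (225 to 358 kb), below the interval of the solitary ones. For late peaks that were not solitary it was 1748 kb (1425 to 3029 kb), above the median of the solitary ones, with overlapping intervals.

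The make-up of the surrounding 500 kb (250 kb on either side) differed by class in the same way. Around early members 78.9% of this sequence was early on average, close to the 77.6% around early sequence in general. Around late members 72.3% was late and 25.9% mid-late, whereas around late sequence in general 85.3% was late and 13.96% mid-late. Around the other late interior peaks 67.2% was late and 27.8% mid-late. A window of a single class surrounded 20 of 69 late members (29.0%), 26.4% of the other late peaks and 51.9% of late positions. Around mid-early members 35.8% was early, against 43.7% around other mid-early peaks and 24.8% around mid-early positions. Surroundings of mixed class were thus not particular to solitary peaks. At 500 kb from late members, 39.1% of positions were in an earlier class, compared with 56.2% for other late peaks and 27.9% for late sequence.

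**Figure D5:**
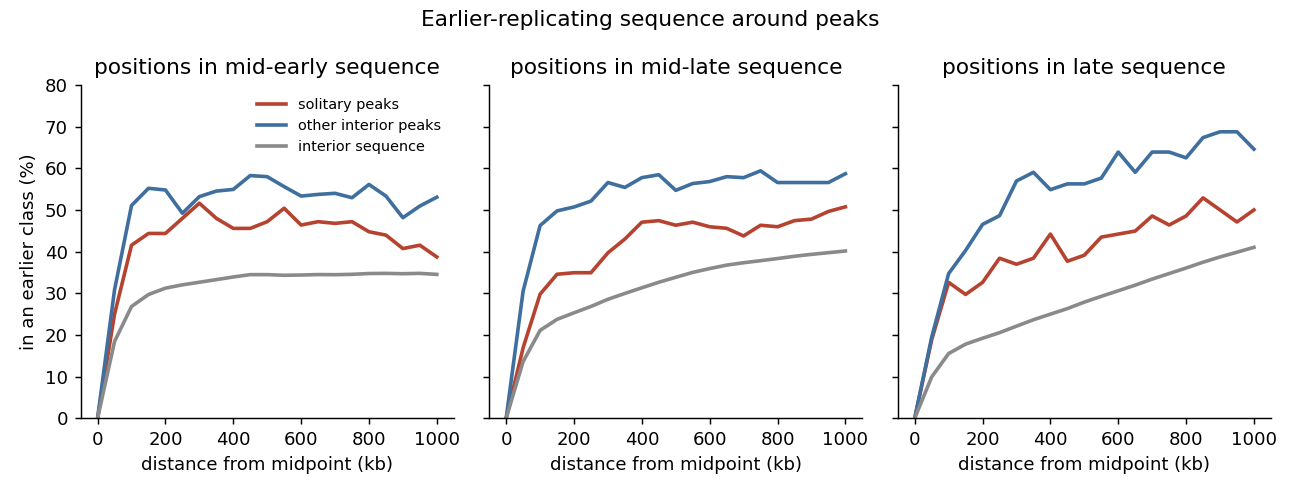
Share (%) of positions in an earlier timing class at each distance (kb, mean of both sides) from solitary peaks (red), other interior peaks (blue) and interior sequence without the wide mid-early intervals (grey), for positions in mid-early, mid-late and late sequence. At 500 kb from late positions the values are 39.1, 56.2 and 27.9%.

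Break sites were compared because the series follows replication around them. They are 129 AsiSI sites listed as overlapping MRE11, a nuclease that binds broken ends, mapped in HCT116_LIG4_KO_AID_RAD21 cells and thus in another line than the peaks. Solitary peaks lay near one about as often as interior sequence did. Within 1 Mb were 40 of 503 members (7.95%, 5.74 to 10.7%), compared with 10.4% of other interior peaks (8.70 to 12.2%) and 6.79% of interior sequence. Of these 40, 20 were early and 2 late, while of all members 34.6% were early and 13.7% late. The median distance between midpoints was 9.87 Mb, against 7.88 Mb for other interior peaks and 11.3 Mb for interior sequence. Within 50 kb there were 3 members (0.596%), against 0.663% of other interior peaks and 0.355% of sequence. The early peak chr2:120124509-120125508 had its midpoint 0.44 kb from a site and so covers it, the mid-early peak chr2:74730379-74731378 was 3.89 kb from a site, and the mid-late peak chr1:14106838-14107837 was 31.2 kb from one.

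Of the members, 7 lay within 1 Mb of one of the wide mid-early intervals without peaks. The lowest of their scores was 10.8, the median 12.6 and the highest 21.7. The closest was chr1:121484744-121485743, with a midpoint 2.96 kb from the interval and 1 of the 5 highest scores. Without these 7, 13.5% of members were late and the median distance to a border kept within its interval.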

How the data were processed

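The data are 6 region lists as deposited by the authors, on hg19, the build that the submitters' processing notes name together with MACS2, with no version. The sources used here name no aligner, no read filters and no libraries behind the merged list. Per the labels' protocols, NS-seq DNA was size-fractionated and digested with exonuclease. The NS-seq list carries the authors' deposited score per peak, with no stated scale. The other lists, also deposited by the authors, hold positions only. Depth is unknown.

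Neighbouring timing intervals of a class were joined into domains. Each peak was placed by its midpoint, and gaps were measured edge to edge. Background positions were taken every 10 kb of the 2575 Mb interior. Shares carry exact Clopper-Pearson intervals, densities exact Poisson intervals and medians order statistic intervals, all at 95% and for counting error only. Gap, class, border and window measures were tested on simulated data at 1200 positions, with 0 mismatches against direct counting. Python 3.11.15, numpy 2.4.6, pandas 2.3.3 and scipy 1.17.1 were used.

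The members and lists were chosen with earlier results of these data known. Regions named are the 8 with the largest gap, 5 each with the highest score, nearest and farthest from a border, 3 nearest to a break site, those next to the gap and end thresholds (3 and 2 on either side), every member on a chromosome with 3 or fewer, of which there were none, and those in the longest early and late domains with a member. Alternatives changed the gap, the margin, the score, the chromosomes and the border definition. Sequence and genes were not analysed here, since no hg19 reference was used. The wide mid-early intervals, and the members near them, were set apart after the data were seen.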

Additional observations from a re-analysis of the deposited data

How the results depend on the processing

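Across 8 results, 203 alternatives were computed, 144 planned and 59 added after the data were seen. In 188 the value stayed within the interval of the reported one (for the count, within 1.5 times), and 15 moved outside. Each value is a level and not a contrast, so none could turn in direction. Many alternatives left out 1 chromosome and so kept most members. The number of members was 791 with gaps above 100 kb, 330 above 500 kb and 248 when members had to reach the median score. The late share of members was 10.4% above 100 kb, 18.2% above 500 kb and 9.82% when members and neighbours had to reach the median score. The late share of other interior peaks was then 8.39%, and 7.75% with that score asked of these peaks alone. The median member score became 14.1 and 13.7 under these score choices, by construction. The median distance to a border was 86.1 kb with domains under 50 kb merged and 311 kb when only borders between the 2 earlier and the 2 later classes counted, which removes borders by construction. The share of non-early members with earlier sequence nearby was 72.0% with merged domains, 56.2% within 100 kb and 73.2% without mid-early members. The median border distance of late members stayed within its interval in all 27 alternatives run, none of which changed the border definition. With domains under 50 kb merged, it was 127.7 kb for late members and 366.9 kb for late sequence.

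Leaving out each chromosome in turn gave 437 to 499 members, a late share of 12.7 to 14.5%, a median border distance of 67.1 to 70.9 kb, a nearby-earlier share of 77.8 to 79.9% and a median score of 11.7 to 11.8. For other interior peaks the late share was 5.08 to 6.82%, and for late members the median border distance was 97.9 to 108 kb. No paired analysis was possible because the lists hold no values per sample. The unknown depth and the lowest score of 10.0 limit every gap, since a weaker peak next to a member would not be listed.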

Other observations

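Neighbouring members share a gap that the rule requires to exceed 250 kb, so runs of members are in part built in, and no number of runs was computed for comparison. In the order of the list, the 503 members formed 174 runs without a clustered peak between them. Of these, 63 were single members, 34 were pairs and 77 had 3 or more members, which together hold 372 of the 503. The longest run, 12 members on chromosome 4 from 52709563 to 179875434, spanned 127 Mb. A run of 11 on chromosome 16 (29825863 to 57069699) spanned 27.2 Mb, and a run of 10 on chromosome 15 (82350797 to 95211114) only 12.9 Mb. The chromosome 16 span includes a gap of 13.8 Mb between neighbouring members, which takes in wide mid-early sequence without peaks. A run of 10 on chromosome 5 (35708228 to 138716193) spanned 103 Mb and also takes in wide mid-early sequence.

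Much of the interior was far from any peak. Without the wide mid-early intervals, 82.0% of it was more than 250 kb from every peak and 20.9% more than 5 Mb from one. The late share of this sequence was 32.3% beyond 250 kb and 43.6% beyond 5 Mb, against 28.2% of the whole. Early sequence still made up 14.1% of the 520 Mb that lay more than 5 Mb from a peak. Outside the interior, 133 of 2024 nuclear peaks (6.57%) had a gap above 250 kb, against 29.4% inside. They comprised 52 on chromosomes left out of the rule and 81 near the ends of the others.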
